A study of Mus musculus with 4 samples.

Results

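The genes described here encode nutrient and solute carriers of the solute carrier (SLC) superfamily that act mainly at the plasma membrane. They were chosen by symbol alone, as genes of SLC families 1, 2, 3, 5, 6, 7, 15, 16, 22, 23, 26, 27, 28, 29, 36, 38, 43 and 51 that had a probe set with 1 gene symbol. Symbols with further letters after the member number, such as Slc6a20a and Slc5a4b, were left out. The rule found 153 carrier genes on 156 probe sets, among 19937 genes on 21640 such probe sets, and used no measured value. The rule and the gene lists used below were nevertheless set with earlier results of these data known. All samples were intestinal epithelium (C57BL/6 mice, adult), taken from gut in which ultraviolet light had crosslinked RNA to protein. There were 4 groups: RNA precipitated with an antibody to the RNA-binding protein Msi1 (Musashi1), RNA precipitated with an antibody to an hnRNP (a heterogeneous nuclear ribonucleoprotein, with no member of that class named in the labels), a nonspecific IgG precipitation as control, and input RNA that was not precipitated. The labels name no mutant allele and no drug for any group. Each group had 1 Affymetrix Mouse Gene 1.0 ST array, and each array carried RNA combined from 2 experiments, so there was no replicate and no error between animals could be given. Precision is therefore limited by the number of arrays. All differences are given by size, without a test, and 2-fold (1 log2 unit) was the size counted.

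Absorptive cells take up nutrients in 2 steps, through carriers in the apical brush border and then through carriers in the basolateral membrane. Secondary active carriers use the gradients of sodium or protons, exchangers trade one solute for another, and facilitative carriers let a solute run down its own gradient. Several amino acid carriers work as a pair of subunits, in which a heavy chain of family SLC3 brings a transporting light chain of family SLC7 to the membrane. Musashi proteins bind RNA and are known as regulators of translation and stability of their targets in progenitor cells of the gut and the nervous system. In a crosslinked precipitation, a transcript bound by the protein is sought as an excess over the control precipitation.

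Values are log2 signals as deposited. A gene was taken as detected on an array when its signal exceeded that array's floor, which was set at the 95th percentile of 1192 probe sets for olfactory and vomeronasal receptors, genes known from sensory neurons of the nose. The floors were 4.74 for Msi1, 5.17 for hnRNP, 5.27 for IgG and 4.09 for input. Of the 153 carrier genes, 60 exceeded the floor on the Msi1 array (39.2%), 44 on the hnRNP array (28.8%), 28 on the IgG array (18.3%) and 93 on the input array (60.8%). Over all genes the shares were 47.7% for Msi1, 32.8% for hnRNP, 28.1% for IgG and 59.0% for input. In all, 51 carrier genes were above no floor, 31 were above the input floor only, 19 were above the Msi1 and input floors only, and 19 were above all 4. The labelled tissue was checked by markers on input. All 8 enterocyte, 4 goblet, 4 Paneth, 4 enteroendocrine and 3 tuft markers exceeded the floor. So did 3 of 4 immune and 3 of 6 stroma and muscle markers, against 0 of 2 endothelial and 0 of 3 enteric neuron and glia markers found. Input medians were 11.39 for enterocyte, 11.09 for goblet, 11.53 for Paneth and 6.77 for enteroendocrine markers. They were nearer the floor for tuft (5.02), immune (4.885) and stroma and muscle markers (4.44). In bulk RNA, fewer cells of a type and less RNA per cell cannot be told apart.

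The input array was led by carriers of amino acids and glucose. Slc3a2, the heavy chain shared by several amino acid exchangers, read 6.0 on Msi1, 5.01 on hnRNP, 5.0 on IgG and 10.26 on input. It was the carrier gene with the highest input value and ranked 8 of 153 on the Msi1 array. Slc5a1, the sodium-glucose cotransporter of the brush border, read 5.99 on Msi1, 5.26 on hnRNP, 5.44 on IgG and 9.76 on input. Slc7a8, a light chain for neutral amino acids at the basolateral membrane, read 5.36 on Msi1, 4.94 on hnRNP, 5.34 on IgG and 9.67 on input. These leading carriers stood far above the floor on input and much nearer to it on the precipitates.

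The pattern extended over the 20 carrier genes highest on input, whose input values ran from 8.0 to 10.26 with a median of 8.83. Their Msi1 values ran from 3.88 to 7.89 (median 5.73), their hnRNP values from 3.98 to 5.82 (median 5.0) and their IgG values from 3.61 to 5.76 (median 5.05). Of these 20, 17 exceeded the Msi1 floor, 9 the hnRNP floor and 8 the IgG floor. The 1412 genes with at least the same input level had medians of 6.24 on Msi1, 5.20 on hnRNP and 5.25 on IgG, and 93.9% of them exceeded the Msi1 floor. Across the 153 carrier genes, which share their arrays and are not replicates, Msi1 and input levels correlated at Pearson's r = 0.672 (Spearman's rho 0.678). The hnRNP and input levels correlated at r = 0.282 (rho 0.333), and the IgG and input levels at r = 0.316 (rho 0.385). Over all 19937 genes, r with input was higher, at 0.740 for Msi1, 0.421 for hnRNP and 0.422 for IgG. The hnRNP and IgG levels correlated at r = 0.739 across the carriers and 0.794 across all genes.

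**Figure D1:**
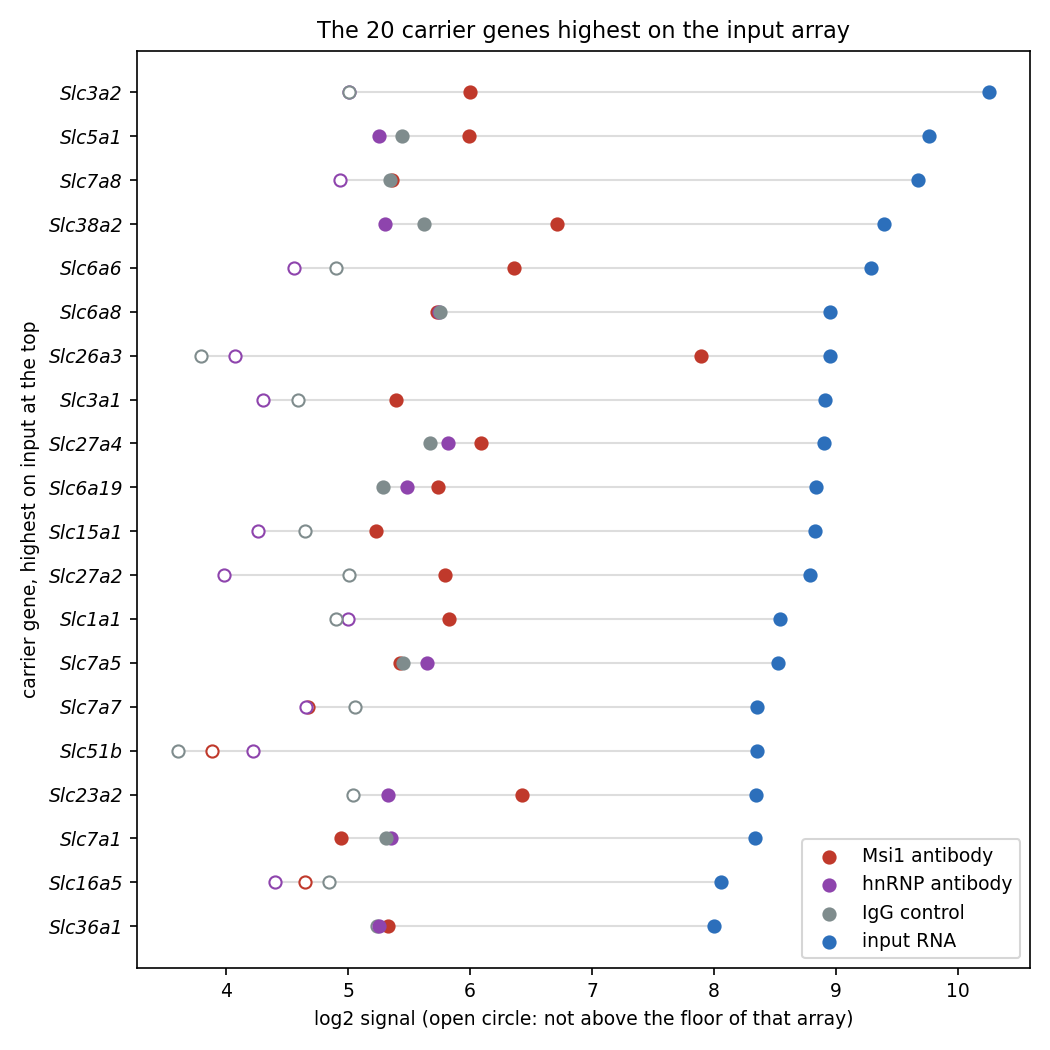
Log2 signal (horizontal axis) of the 20 carrier genes highest on input, 1 gene per row, on the Msi1, hnRNP, IgG and input arrays (1 array each, no error bars). Open circles are values not above that array's floor. Slc26a3 at 7.89 is the Msi1 value nearest its input value among these 20, and the hnRNP and IgG values lie between 3.61 and 5.82.

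IgG was the control over which the study ranked Msi1 enrichment. Of the 153 carrier genes, 65 exceeded the floor with Msi1, with IgG or with both, 37 of them through the Msi1 array alone and 5 through the IgG array alone. The filter used the same values as the difference and the floors are unequal, so the counts describe the genes and support nothing beyond that. Of the 65, 8 exceeded IgG by 2-fold or more with Msi1 (12.3%) and 2 were lower by as much (3.08%), while 18.6% of the 10351 genes detected in this comparison were higher and 6.92% lower. Without a floor, 8 of 153 carrier genes were higher and 7 lower, and over all 19937 genes 9.99% were higher and 8.25% lower. The median difference was 0.08 for the 65 carrier genes and 0.065 for all detected genes, and −0.20 and −0.19 without a floor. The carriers' share of higher genes was thus not above that of genes at large. In 7 of the 8 higher genes the IgG signal did not reach its floor. With the dimmer value raised to its floor, 5 carrier genes passed 2-fold upward and 1 downward, against 10.8% and 3.86% of all detected genes. Among all genes past 2-fold, 72.9% were higher in Msi1, or 59.7% after quantile normalization of the arrays, under which 12 carriers were higher and 5 lower.

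Slc26a3 was the carrier gene with the largest excess. It encodes the apical chloride-bicarbonate exchanger of enterocytes, whose loss causes congenital chloride diarrhoea in people. It read 7.89 on Msi1, 4.07 on hnRNP, 3.79 on IgG and 8.95 on input. The Msi1 and input values were far above their floors, and the hnRNP and IgG values were below theirs. Its difference from IgG was 4.10 log2 units, or at least 6.17-fold against the IgG floor. Its Msi1 minus input difference was −1.06, while the other carriers of the top 20 on input ran from −4.47 to −1.91.

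Slc26a2, the sulfate transporter of the same family, read 6.30 on Msi1, 4.04 on hnRNP, 4.31 on IgG and 7.94 on input. As with Slc26a3, the hnRNP and IgG values lay below their floors, and the difference from IgG was 1.99, or at least 2.04-fold. Slc23a2, a sodium-dependent vitamin C transporter, read 6.43 on Msi1, 5.33 on hnRNP, 5.04 on IgG and 8.34 on input. It differed from IgG by 1.38, or at least 2.24-fold. Slc26a3, Slc23a2 and Slc26a2 ranked 1, 3 and 5 among the 153 carriers on the Msi1 array.

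Slc6a6, the taurine transporter, read 6.36 on Msi1, 4.55 on hnRNP, 4.90 on IgG and 9.29 on input. It differed from IgG by 1.46, or at least 2.13-fold. Slc38a2, a sodium-coupled carrier of small neutral amino acids, read 6.71 on Msi1, 5.30 on hnRNP, 5.62 on IgG and 9.39 on input. It was above the floor on all 4 arrays and differed from IgG by 1.09, a measured 2.13-fold. It lay close to the 2-fold size, and came to 0.93 after quantile normalization and 0.96 after loess centring, under 2-fold in both. It was the only one of the 8 higher genes with an IgG value above the floor.

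The other higher genes did not reach 2-fold once the IgG value was raised to its floor. Slc5a12, a sodium-coupled carrier of lactate and other monocarboxylates, read 5.84 on Msi1, 3.92 on hnRNP, 4.51 on IgG and 7.09 on input, a difference of 1.33 from IgG (at least 1.49-fold). Slc5a9, a sodium-coupled carrier of mannose and related sugars, read 5.13 on Msi1, 4.23 on hnRNP, 3.96 on IgG and 6.96 on input, a difference of 1.17. Slc38a9, an amino acid carrier and sensor of the lysosome and not of the plasma membrane, read 5.08 on Msi1, 5.39 on hnRNP, 3.84 on IgG and 4.26 on input, a difference of 1.24. The Msi1 values of Slc5a9 and Slc38a9 were below the IgG floor, so no fold can be given for them. The second probe set of Slc38a9 read 3.58 on Msi1, 3.86 on hnRNP, 4.10 on IgG and 5.75 on input, and differed from IgG by −0.52. The next carriers below 2-fold were Slc27a3 at 0.997 and Slc3a2 at 0.99.

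The 2 genes lower in Msi1 were Slc38a8 and Slc28a1. Slc38a8, a glutamine carrier known from the retina, read 5.02 on Msi1, 5.68 on hnRNP, 6.23 on IgG and 4.24 on input, a measured 2.33-fold lower value in Msi1 (−1.22). Its highest value was in the IgG precipitate and its lowest in input. Slc28a1, the pyrimidine nucleoside carrier of the brush border, read 4.61 on Msi1, 5.41 on hnRNP, 5.70 on IgG and 6.70 on input, a difference of −1.09 (at least 1.95-fold lower). The receptor genes that set the floor also read lower in Msi1 than in IgG, with a median difference of −0.38. Counted without a floor, 190 of 1178 receptor genes (16.1%) were at least 2-fold lower and 10 (0.849%) higher.

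**Figure D2:**
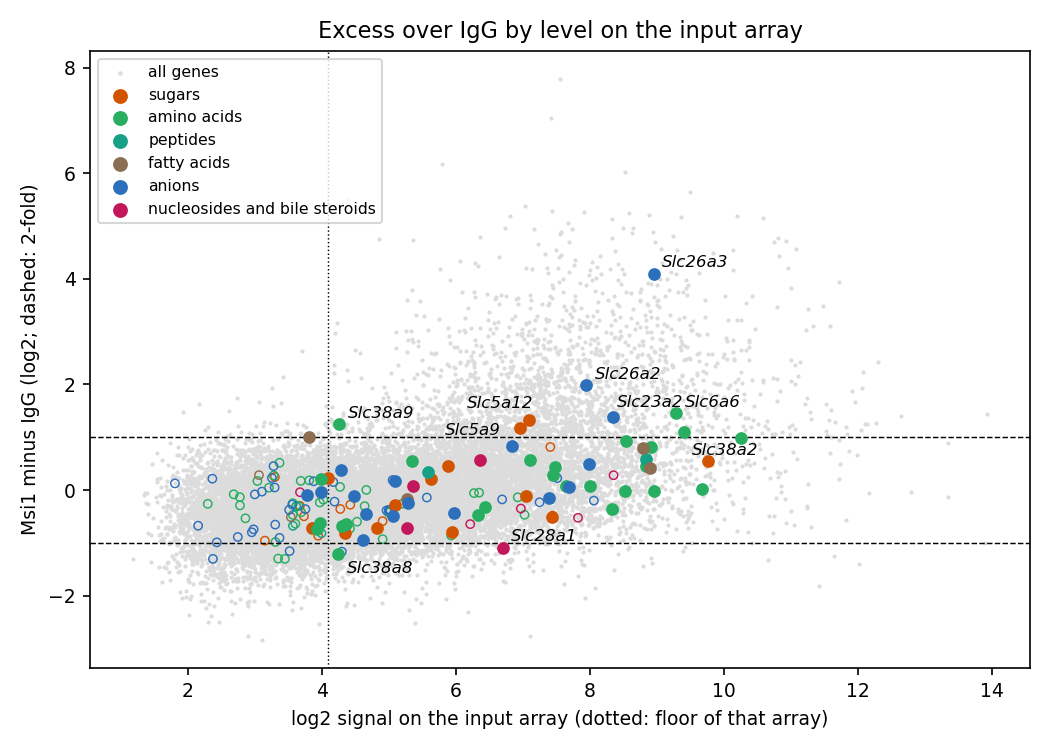
Difference of Msi1 minus IgG (log2, vertical axis) against the input level (log2 signal, horizontal axis) for the 153 carrier genes in colour by substrate group and all 19937 genes in grey. Filled points exceeded the floor with Msi1 or IgG, dashed lines mark 2-fold, the dotted line the input floor, and the 10 detected carrier genes past 2-fold are named. Slc26a3 lies at 4.10 and no other carrier is above 1.99.

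Substrate groups were formed by family number alone, so a group can hold members with other substrates. Beside each group's count in Msi1 against IgG stand 18.6% of all detected genes higher and 6.92% lower. The sugar carriers of families SLC2 and SLC5 counted 23 genes, of which 11 were above the Msi1 floor, 11 above the hnRNP floor, 7 above the IgG floor and 16 above the input floor. Apart from Slc5a12 and Slc5a9, none of the 13 detected was 2-fold from IgG in Msi1. Slc2a2, the facilitative glucose carrier of the basolateral membrane, read 5.17 on Msi1, 4.21 on hnRNP, 5.68 on IgG and 7.44 on input. Slc2a1, the facilitative glucose carrier of many cell types, read 4.42 on Msi1, 5.51 on hnRNP, 4.90 on IgG and 7.44 on input. Both stood at the same input level. Slc2a2 exceeded the floors of Msi1 (4.74) and IgG (5.27) and Slc2a1 that of hnRNP (5.17), each by less than 2-fold. With 1 array per group, this contrast was not tested. Slc2a5, the apical fructose carrier, read 4.50 on Msi1, 5.22 on hnRNP, 5.30 on IgG and 5.93 on input. Slc2a9, known as a urate carrier, read 6.22 on Msi1, 5.44 on hnRNP, 5.77 on IgG and 5.89 on input, and was the sugar-family gene highest on the Msi1 array although 53 in the order on input. Slc5a8, a sodium-coupled carrier of short-chain fatty acids, read 4.68 on Msi1, 3.92 on hnRNP, 3.87 on IgG and 7.41 on input, so it was above the floor on input only.

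The amino acid carriers of families SLC1, SLC3, SLC6, SLC7, SLC36, SLC38 and SLC43 counted 60 genes. Of these, 24 were above the Msi1 floor, 18 above the hnRNP floor, 12 above the IgG floor and 36 above the input floor. Among the 25 detected, 3 passed 2-fold over IgG with Msi1 (12%) and 1 was lower (4%). Both shares were below the 18.6% and 6.92% of all detected genes. Subunits that pair with each other were read side by side. The heavy chain Slc3a2 was at least 1.66-fold over IgG, with an IgG value below the floor. Its light chains Slc7a8 and Slc7a5, above both floors, differed from IgG by 0.01 and −0.02, and its light chain Slc7a7 was above neither floor. The heavy chain Slc3a1 of the brush border cystine exchanger read 5.40 on Msi1, 4.30 on hnRNP, 4.59 on IgG and 8.91 on input. Its light chain Slc7a9 read 4.94 on Msi1, 4.34 on hnRNP, 4.37 on IgG and 7.11 on input. The IgG and hnRNP values of both were below the floor. Slc3a1 was at least 1.09-fold over IgG, and the Msi1 value of Slc7a9 was under the IgG floor, so no fold can be given for it.

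Other abundant amino acid carriers stayed under 2-fold over IgG in Msi1. Slc6a8, the creatine transporter, read 5.73 on Msi1, 5.75 on hnRNP, 5.76 on IgG and 8.95 on input. Slc6a19, the main apical carrier of neutral amino acids, read 5.74 on Msi1, 5.49 on hnRNP, 5.29 on IgG and 8.83 on input. Slc1a1, a glutamate carrier, read 5.83 on Msi1, 5.0 on hnRNP, 4.90 on IgG and 8.54 on input, a difference of 0.93 from IgG (at least 1.48-fold). Slc36a1, the proton-coupled carrier of small amino acids, read 5.32 on Msi1, 5.25 on hnRNP, 5.24 on IgG and 8.0 on input. Slc6a8 and Slc26a3 both read 8.95 on input but 5.73 and 7.89 on Msi1. Slc38a1, a glutamine carrier, had 2 probe sets that disagreed. The brighter over the 4 arrays read 4.98 on Msi1, 4.19 on hnRNP, 4.70 on IgG and 7.44 on input, a difference of 0.28 from IgG. The other read 6.23 on Msi1, 4.77 on hnRNP, 4.62 on IgG and 4.47 on input, a difference of 1.60 from IgG and 1.75 from input. The counts above use the first of these.

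Of 5 peptide carrier genes of family SLC15, 2 were above the Msi1 and input floors, 1 above the hnRNP floor and 0 above the IgG floor. Slc15a1, the proton-coupled carrier of dietary di- and tripeptides, read 5.23 on Msi1, 4.26 on hnRNP, 4.65 on IgG and 8.83 on input. Slc15a4, a lysosomal histidine and peptide carrier, read 4.85 on Msi1, 4.01 on hnRNP, 4.51 on IgG and 5.59 on input. Both differed from IgG by less than 2-fold, at 0.58 and 0.34, and the IgG and hnRNP values of both lay below the floor. Slc15a2, the peptide carrier best known from kidney, was above no floor.

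Of 6 fatty acid transport proteins of family SLC27, 4 were above the Msi1 floor, 2 above the hnRNP floor, 1 above the IgG floor and 3 above the input floor. Slc27a4, the main member of the small intestine, read 6.09 on Msi1, 5.82 on hnRNP, 5.67 on IgG and 8.90 on input. Slc27a2, a very long-chain acyl-CoA synthetase, read 5.79 on Msi1, 3.98 on hnRNP, 5.01 on IgG and 8.79 on input. Slc27a3, an acyl-CoA synthetase of the family, read 5.34 on Msi1, 5.07 on hnRNP, 4.34 on IgG and 3.81 on input, and so was above the floor on the Msi1 array alone. None of the 6 reached 2-fold over IgG in Msi1, and their differences ran from −0.51 to 0.997.

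The anion group of families SLC16, SLC22, SLC23 and SLC26 counted 50 genes, of which 17 were above the Msi1 floor, 10 above the hnRNP floor, 6 above the IgG floor and 28 above the input floor. Besides Slc26a3, Slc26a2 and Slc23a2, none of the 17 detected reached 2-fold over IgG. Slc26a6, an apical anion exchanger close in function to Slc26a3, read 4.77 on Msi1, 4.95 on hnRNP, 4.28 on IgG and 7.99 on input. It differed from IgG by 0.49, against 4.10 for Slc26a3. Slc16a1, the monocarboxylate carrier for lactate and butyrate, read 4.14 on Msi1, 4.33 on hnRNP, 3.92 on IgG and 7.51 on input, above the floor on input only. Slc16a5, another monocarboxylate carrier family member, read 4.64 on Msi1, 4.40 on hnRNP, 4.84 on IgG and 8.06 on input, also above the floor on input only. Of the 22 SLC22 genes, which carry organic cations and anions chiefly in kidney and liver, 6 were above the Msi1 floor and 10 above the input floor. Slc22a5, the carnitine carrier, read 4.39 on Msi1, 4.54 on hnRNP, 4.62 on IgG and 7.25 on input. Slc22a17, a receptor for lipocalin-bound iron, read 5.72 on Msi1, 6.32 on hnRNP, 6.66 on IgG and 4.61 on input, and had the highest IgG value of the 153 carriers.

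The 9 carriers of nucleosides (SLC28 and SLC29) and of bile acids and steroids (SLC51) had the largest share above the input floor, with 8 of 9. On the Msi1 array 2 were above the floor, as were 2 on hnRNP and 2 on IgG. Slc51a and Slc51b encode the subunits of the basolateral bile acid exporter of the ileum. Slc51a read 4.40 on Msi1, 4.94 on hnRNP, 4.93 on IgG and 7.82 on input. Slc51b read 3.88 on Msi1, 4.22 on hnRNP, 3.61 on IgG and 8.35 on input. Both subunits were above the floor on input and on no precipitate. Slc28a2, a purine nucleoside carrier, read 3.58 on Msi1, 3.39 on hnRNP, 4.22 on IgG and 6.21 on input, and Slc28a3 read 3.91 on Msi1, 3.81 on hnRNP, 4.26 on IgG and 6.97 on input.

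**Figure D3:**
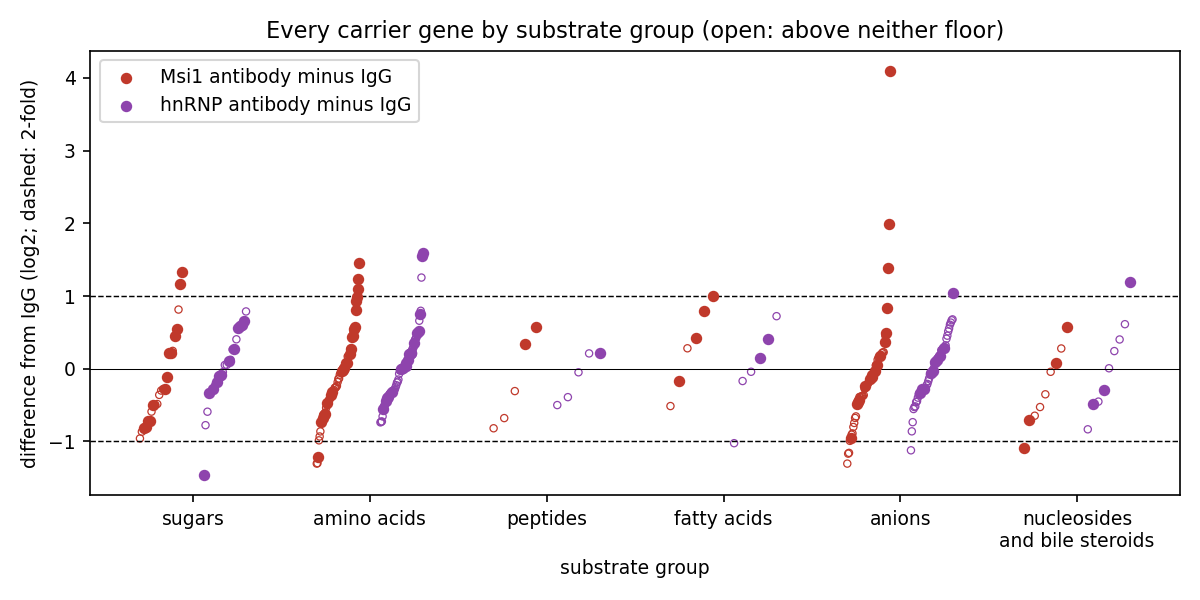
Difference from IgG (log2, vertical axis) of each carrier gene in the Msi1 (red, left) and hnRNP (purple, right) precipitates by substrate group, with genes sorted by value within each column. Filled points exceeded the floor on either array of the pair, open points on neither, and dashed lines mark 2-fold. The anion group holds the points at 4.10 and 1.99 in Msi1, and no hnRNP point of a detected gene is above 1.60.

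The hnRNP antibody was set against the same IgG array to show what another antibody to an RNA-binding protein brought down. Of 48 detected carrier genes, 4 were at least 2-fold above IgG (8.33%) and 1 below it (2.08%), beside 6.28% and 4.52% of 7895 genes. Without a floor the counts were 5 and 3 of 153, beside 3.98% and 3.81% of all genes. Slc38a5, a glutamine carrier, read 4.50 on Msi1, 6.04 on hnRNP, 4.44 on IgG and 4.27 on input, a difference of 1.60 from IgG (at least 1.71-fold). Slc38a9 differed by 1.55 (at least 1.09-fold) on one probe set and by −0.24 on the other, Slc29a3, a lysosomal nucleoside carrier, by 1.19 (at least 1.88-fold), and Slc22a12, the renal urate exchanger, by 1.04 (at least 1.83-fold). Slc43a2, a neutral amino acid carrier, was next at 0.75, under 2-fold. At the other end Slc2a2 differed by −1.46 (at least 1.42-fold lower), Slc38a8 by −0.56, Slc29a2 by −0.48, Slc6a3 by −0.45 and Slc7a8 by −0.41. With the dimmer value raised to its floor, 0 carrier genes passed 2-fold in either direction, against 1.71% and 1.17% of all detected genes. Because Msi1 and hnRNP share the IgG array, their own values are given side by side and the overlap was not counted. Slc26a3 differed from IgG by 4.10 in Msi1 and 0.28 in hnRNP, Slc26a2 by 1.99 and −0.27, Slc6a6 by 1.46 and −0.34, and Slc38a2 by 1.09 and −0.32.

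Set directly against hnRNP, without the IgG array, 8 of 70 detected carrier genes exceeded hnRNP by 2-fold or more (11.4%) and 5 were lower by as much (7.14%), beside 17.5% and 7.77% of 10643 genes. With the dimmer value raised to its floor, 5 were higher and 3 lower, beside 10.9% and 4.03%, and without a floor 8 and 9 of 153, beside 9.78% and 7.83%. Of all genes past 2-fold, 69.2% were higher in Msi1, against 79.8% after median centring, 57.4% after quantile normalization and 80.1% after loess centring. Slc26a3 exceeded hnRNP by 3.82 (at least 6.60-fold), Slc26a2 by 2.25 (at least 2.18-fold), Slc5a12 by 1.92 (at least 1.59-fold), Slc27a2 by 1.81 (at least 1.54-fold) and Slc6a6 by 1.80 (at least 2.28-fold). Slc38a2, Slc3a1 and Slc23a2 exceeded it by 1.41, 1.10 and 1.09. Lower in Msi1 than in hnRNP were Slc38a5 (−1.54), Slc7a10, a small neutral amino acid carrier of the brain (−1.20), Slc2a13, a proton-coupled myo-inositol carrier (−1.18), Slc22a12 (−1.15) and Slc2a1 (−1.09). Receptor genes had a median difference of −0.31 in this comparison. Without a floor, 11.9% of them were at least 2-fold lower in Msi1 and 1.7% higher.

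Set against input, most abundant carriers read lower on the Msi1 array, as did abundant genes at large. The 1412 genes at the input level of the top 20 carriers had medians of 8.72 on input and 6.24 on Msi1. Of 100 detected carrier genes, 8 were at least 2-fold higher with Msi1 (8%) and 53 lower (53%), beside 11.8% and 38.4% of 12758 genes. With the dimmer value raised to its floor 5 were higher and 50 lower, beside 8.32% and 34.9%, and without a floor 18 and 53 of 153, beside 16% and 24.7%. Of all genes past 2-fold, 23.5% were higher in Msi1, against 13.3% after median centring, 39.2% after quantile normalization and 48% after loess centring. The carriers lower were 43 after quantile normalization and 40 after loess centring, beside 2418 and 2407 of the 12758 genes. The standard deviation over all probe sets was 1.38 on Msi1 and 2.01 on input. These counts were not matched for input level, and the part of the unequal spread in them was not tested. Slc51b differed by −4.47 (at least 12.2-fold lower), Slc7a8 by −4.31 (19.9-fold lower), Slc3a2 by −4.26 (19.2-fold lower), Slc5a1 by −3.78 (13.7-fold lower) and Slc7a7, a basolateral light chain for cationic amino acids, by −3.68 (at least 12.3-fold lower). The genes furthest above input were Slc27a3 (1.53, at least 2.38-fold), the noradrenaline carrier Slc6a2 (1.14), Slc16a8 (1.12), Slc43a3 (1.12) and Slc22a17 (1.11). Their input values lay between 3.81 and 4.61, near the floor of 4.09, and receptor genes had a median difference of 0.57 in this comparison.

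**Figure D4:**
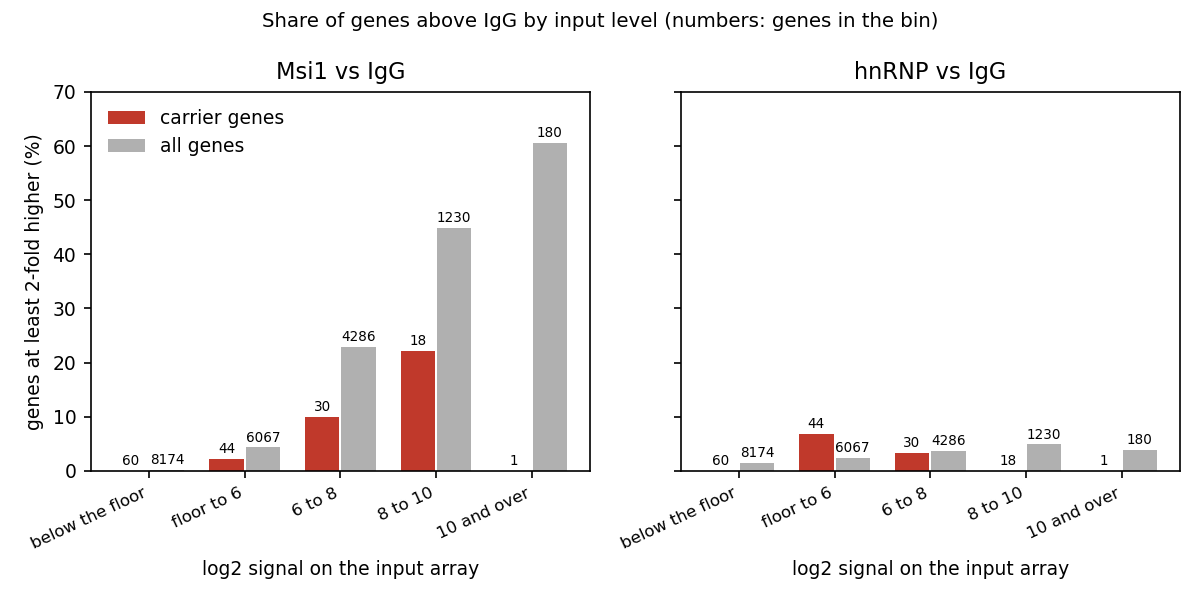
Percent of genes past 2-fold over IgG (vertical axis) by input level (log2 signal, horizontal axis) for carrier genes (red, left bar) and all genes (grey, right bar), with the number of genes in the bin above each bar. In Msi1 against IgG the carriers stand at 22.2% and all genes at 44.9% for input levels of 8 to 10.

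The share of genes in excess over IgG rose with the input level, so the carriers were also set beside genes of like level. At input levels of 8 to 10, 4 of 18 carrier genes exceeded IgG by 2-fold or more with Msi1 (22.2%), beside 552 of 1230 genes (44.9%), with median differences of 0.50 and 0.83. At levels of 6 to 8, 3 of 30 carrier genes were higher (10%), beside 982 of 4286 genes (22.9%), with median differences of −0.05 and 0.27. Between the floor and 6, 1 of 44 carrier genes was higher (2.27%), beside 265 of 6067 (4.37%), and below the floor 0 of 60, beside 19 of 8174 (0.232%). The carriers' share was lower than that of all genes in each of these bins, by counts of 4, 3, 1 and 0 genes that were not tested. On the Msi1 array itself, 83.3% of carriers and 93.6% of all genes at input levels of 8 to 10 exceeded the floor, and 56.7% and 81.1% at levels of 6 to 8. The IgG floor was exceeded by 44.4% of carriers and 45.9% of all genes at levels of 8 to 10, and by 13.3% and 37.0% at levels of 6 to 8. With hnRNP, 0 of 18 carriers and 4.88% of all genes at levels of 8 to 10 were 2-fold above IgG, 1 of 30 carriers (3.33%) and 3.73% of all genes at 6 to 8, and 3 of 44 carriers (6.82%) and 2.42% of all genes between the floor and 6.

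Carriers grouped by their known site were read on the same arrays. Of all genes detected in Msi1 against IgG, 18.6% were higher and 6.92% lower, and these lists are too small to compare with those shares. Of 17 apical carriers of the enterocyte, 16 were above the input floor and 10 above the Msi1 floor, with median signals of 4.92 on Msi1, 4.40 on hnRNP, 4.59 on IgG and 7.51 on input. Of the 12 detected, Slc26a3 alone passed 2-fold over IgG with Msi1, and Slc28a1 alone was lower. The exception on input was Slc6a14, a broad amino acid carrier, at 2.78. Of 10 basolateral carriers, all were above the input floor and 7 above the Msi1 floor, with medians of 5.02 on Msi1, 4.97 on hnRNP, 5.03 on IgG and 8.09 on input, and Slc38a2 alone passed 2-fold over IgG with Msi1. Slc16a10, a carrier of aromatic amino acids and thyroid hormones, read 5.11 on Msi1, 5.22 on hnRNP, 5.26 on IgG and 7.38 on input. Of the 12 carriers found that are known mainly from neurons or glia, 4 were above the Msi1 floor and 5 above the input floor, and 0 of 5 detected were 2-fold from IgG in either direction. Those with input signal included Slc6a4, the serotonin carrier that enterocytes also use, at 7.02. Of the 11 found from kidney or liver, 3 were above the Msi1 floor and 3 above the input floor, and 0 of 3 detected were 2-fold from IgG.

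The brush border hydrolases, several of which release sugars and amino acids that the carriers take up, were read beside them. Of 10 found, 8 were above the Msi1 floor and all 10 above the input floor, with medians of 7.40 on Msi1, 5.03 on hnRNP, 5.30 on IgG and 9.97 on input. Of the 10, 9 were detected in Msi1 against IgG, and 7 passed 2-fold over IgG with Msi1 and 0 were lower. Beside 7 of 10 stood 44.9% of 1230 genes at input levels of 8 to 10 and 60.6% of 180 genes at 10 and over. Both of these shares count genes whether detected or not. Sis, the sucrase-isomaltase that splits sucrose, read 8.34 on Msi1, 4.40 on hnRNP, 4.91 on IgG and 11.25 on input (at least 8.44-fold over IgG). Lct, the lactase, read 5.15 on Msi1, 5.68 on hnRNP, 5.06 on IgG and 9.78 on input, and differed from IgG by 0.09. The hydrolases' input median was above that of the apical carriers, so the lists differ in level as well. Of 11 partners of carriers found, 4 of 9 detected passed 2-fold over IgG with Msi1, beside 18.6% of all detected genes. The partners' input median was 8.62. Beside 4 of the 11 found stood 44.9% of all genes at input levels of 8 to 10, detected or not. Among the 4 were Atp1b1, a subunit of the sodium pump (5.40-fold), and Slc10a2, the apical bile acid carrier, whose Msi1 value of 5.33 was at least 1.05-fold over the IgG floor. Markers of epithelial cell types were read in the same way, and they differed by type. Of 2 detected enteroendocrine markers, 0 passed 2-fold over IgG with Msi1 and 1 was lower. The 1 detected tuft marker was not 2-fold from IgG. The enterocyte markers' summed log2 levels were 65.04 on Msi1, 43.52 on hnRNP, 48.51 on IgG and 88.36 on input. Such sums grow with the number of genes listed and include values below the floor. They are not amounts of RNA and cannot be compared between lists. Of the enterocyte markers, 7 of 8 passed 2-fold over IgG with Msi1, as did 3 of 4 goblet markers and 2 of 4 Paneth markers (3 detected). The input medians of these lists were 11.39, 11.09 and 11.53, and 60.6% of all genes at input levels of 10 and over passed 2-fold. These small counts were not tested against that share. The goblet markers summed to 30.19 on Msi1, 21.44 on hnRNP, 24.81 on IgG and 44.88 on input, and the Paneth markers to 28.30 on Msi1, 18.04 on hnRNP, 24.84 on IgG and 44.66 on input. Their part in the carriers' values was not tested.

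**Figure D5:**
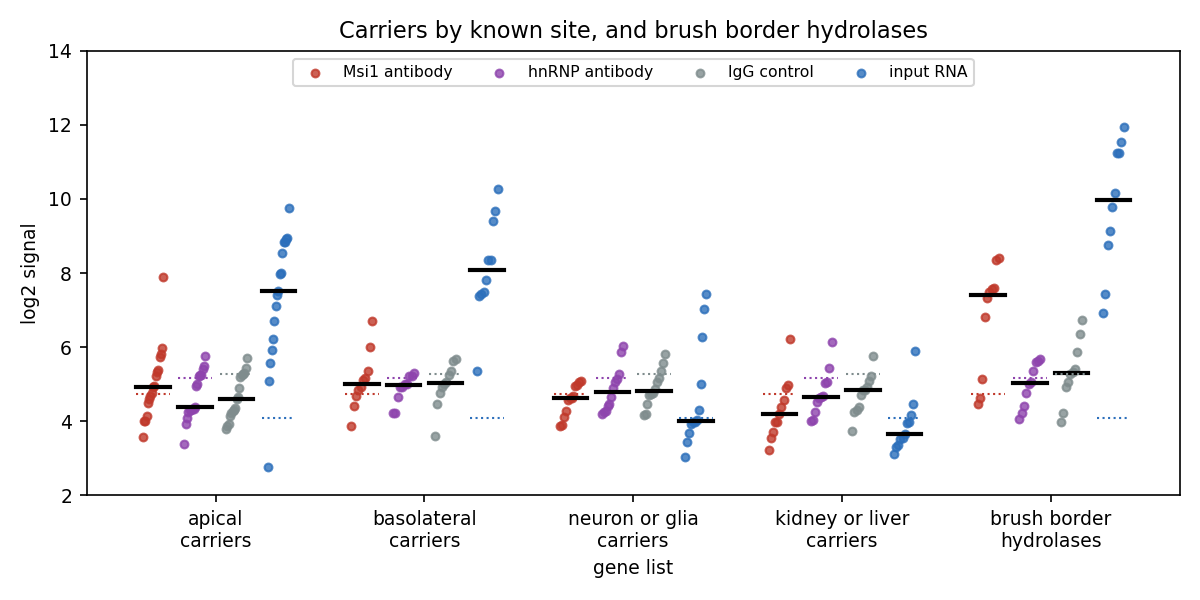
Log2 signal (vertical axis) of the genes of 5 lists on the Msi1, hnRNP, IgG and input arrays, from left to right within each list, 1 point per gene. Black bars are medians and dotted lines each array's floor. The apical carriers' medians are 4.92 on Msi1 and 7.51 on input, and those of the brush border hydrolases 7.40 and 9.97.

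In the RefSeq gene order, 17 pairs of carrier genes were direct neighbours among protein-coding genes. Both genes were detected in Msi1 against IgG in 3 of the 17 pairs, which are too few to compare neighbours in general. Slc38a2 differed from IgG by 1.09 in Msi1. The 2 probe sets of its neighbour Slc38a1 differed by 0.28 and 1.60, so the pair reads differently with each. Slc38a4, on the other side of Slc38a2, was above neither floor. The apical fructose carrier Slc2a5 differed by −0.80 and its neighbour Slc2a7 by 0.22.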

How the data were processed

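The 4 Mouse Gene 1.0 ST arrays carried RNA of the Msi1, hnRNP and IgG precipitates and of input, with 1 array per group. The log2 signals used are those the authors deposited, made with affy per the submitters' processing notes. The sources used here give no background correction, normalization or log base, and base 2 was taken from the range of the values (1.07 to 14.3). Of 34760 probe sets, 21640 had 1 gene symbol in the platform annotation, 1321 had several and 11799 none. A gene with several probe sets was read from the probe set brightest on average across the arrays. All 153 carrier genes matched the RefSeq gene table (GRCm38.p6), which was used for neighbours only. Differences are log2 values of the first-named array minus the second, and genes detected on either array were counted at 2-fold. A fold whose dimmer side lay under the floor was taken against the floor and is a lower bound. Genes were named when past 2-fold in Msi1 against IgG, among the 5 furthest in another comparison, among the 4 highest on input of a substrate group, on a list by known site, or when probe sets disagreed. Examples beyond that rule (such as Slc2a9, Slc16a1, Slc22a5 and Slc28a2) were chosen after their values were seen. Members and lists were chosen with earlier results of these data known. Alternatives were median, quantile and loess centring (span 0.4), other floors, 1.5-fold and 3-fold sizes, and other probe set choices. The calculations used Python 3.11.15, pandas 2.3.3, numpy 2.4.6 and statsmodels 0.14.6 and were tested on simulated data. With 1 array per group, no p-value or error was computed.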

Additional observations from a re-analysis of the deposited data

Results flagged for a closer look

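Of 10 probe sets with carrier-like symbols that fall outside the naming rule and are not counted as carriers above, 3 genes had a signal above the floor of a precipitate and 2-fold or more over IgG. Slc22a13b read 5.41 on Msi1, 5.19 on hnRNP, 4.12 on IgG and 4.53 on input, so it stood 1.29 above IgG in Msi1 and 1.07 above it in hnRNP. Slc6a20b read 4.36 on Msi1, 5.72 on hnRNP, 4.11 on IgG and 4.96 on input, a difference of 1.61 between hnRNP and IgG. Slc6a19os read 3.96 on Msi1, 5.53 on hnRNP, 4.51 on IgG and 4.18 on input, a difference of 1.02 between hnRNP and IgG. In all 3 genes the IgG value was below its floor. Slc6a20a, also outside the rule, read 5.64 on Msi1, 4.72 on hnRNP, 5.42 on IgG and 9.34 on input. That input value lay within the range of the 20 carrier genes highest on input, although the gene is not counted among them.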

How the results depend on the processing

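No paired analysis was possible because each group has 1 array, and no array could be left out for the same reason. The scale of the arrays limits all counts: the median Msi1 minus IgG difference of all genes was −0.19 as deposited, −0.05 after median centring, −0.11 after quantile normalization and −0.01 after loess centring. In Msi1 against IgG (8 higher, 2 lower), the carriers lower were 1 after median centring, 5 after quantile normalization, 1 with the floor at the 99th percentile and 7 without a floor. Higher and lower counts were 5 and 1 with the dimmer value raised to its floor, 1 and 1 with detection required on both arrays, 14 and 12 at 1.5-fold, and 2 and 0 at 3-fold. The higher count was 11 after median centring, 12 after quantile normalization and 11 after loess centring. Beside these, 21.1%, 22.4% and 20.2% of all detected genes were higher. The 8 higher genes were all kept after median centring and 7 were kept after quantile and after loess centring, where Slc38a2 came to 0.93 and 0.96, just under 2-fold. With the floor in place of the dimmer value, Slc38a9 came to −0.18 and Slc5a9 to −0.13, and the probe set of Slc38a9 brightest on input gave −0.52. In hnRNP against IgG (4 higher, 1 lower), the lower count was 0 at the 99th percentile and 3 without a floor, both counts were 0 with the raised floor and with detection on both arrays, and 8 were higher at 1.5-fold, with 1 higher and 0 lower at 3-fold. Slc38a9 was not among the 3 genes higher in hnRNP with the mean of its probe sets or the one brightest on input. In Msi1 against input (8 higher, 53 lower, median −1.20), the higher count was 1 after median centring, 5 after quantile normalization, 3 at the 99th percentile, 18 without a floor, 5 with the raised floor, 3 with detection on both arrays (32 lower), 14 at 1.5-fold and 0 at 3-fold. Its median was −2.05 at the 99th percentile and 0.029 without a floor, where other genes are counted. In Msi1 against hnRNP (8 higher, 5 lower), the counts were 15 and 10 after quantile normalization, 14 and 3 after loess centring, 5 and 3 with the raised floor, 2 and 1 with detection on both arrays, 18 and 20 at 1.5-fold and 5 and 0 at 3-fold, and the lower count was 3 at the 99th percentile and 9 without a floor. With the floor at the 99th percentile, 22 carriers were detected on Msi1, 8 on hnRNP and 4 on IgG. Where scaling moved a count, the cause was not tested.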
